A study of Homo sapiens with 9 samples.

Results

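Genes for voltage-gated and potassium ion channels were compared between ARNT2 knockout and wild-type LN229 cells. All genes were taken whose symbol starts with KCN, CACNA or CACNB, or consists of SCN, a number and A or B, and 7 antisense or opposite-strand names with the same start were left out. That gave 104 of the 19356 genes in the table. LN229 is an established human glioblastoma cell line. RNA of 9 libraries was compared: 3 of the ARNT2 knockout line B3, 3 of the ARNT2 knockout line C4 and 3 of wild-type LN229 (WT). The knockouts were made with CRISPR, and cells of all 3 groups were kept in DMEM with 5% FBS. B3 and C4 are 1 line each, so within a line the knockout cannot be told apart from what else sets that line off from WT. Whether libraries of one group stem from different cultures is not labelled, and the spread behind the p-values may thus be technical.

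Voltage-gated channels open and close with the membrane potential. Sodium and calcium channels let cations into the cell, whereas potassium channels let potassium out and hold the membrane near its resting potential. Channels are built from pore subunits, which form the conducting path. Many also have auxiliary subunits, which set gating and transport to the membrane. Glioma cells are known for calcium-activated potassium channels that take part in cell volume change and migration, and astrocytes for inward rectifiers that clear extracellular potassium.

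The targeted gene was checked first. ARNT2, a transcription factor that pairs with other factors of its family on DNA, had log2 values of 11.91, 11.90 and 11.86 in B3 and 12.22, 12.15 and 12.05 in C4, against 13.56, 13.59 and 13.58 in WT. Its level was 31.1% of WT in B3 and 37.1% of WT in C4, and neither line overlapped WT. By exact permutation (two-sided), p was 0.1 in B3 and in C4, and no lower p can be reached with 3 libraries against 3. The labels do not give the part of the gene that was cut, and protein was not measured. In bulk RNA, fewer cells of a type and less RNA per cell cannot be told apart. The table holds log2 values that the authors scaled between libraries. Read depth is unknown, and the shape of the values understates changes of weakly expressed genes. The median SD between replicates was 0.031 in B3, 0.031 in C4 and 0.035 in WT.

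Of the 104 channel genes, 73 had a mean antilog value of at least 10 over the 9 libraries and were tested. The other 31 had log2 values from 0.00 to 3.35, and their group means differed by at most 0.07. These 31 include the sodium channel gene of sensory neurons SCN10A and the calcium channel pore genes CACNA1B, CACNA1C, CACNA1E, CACNA1H and CACNA1I. Differences were tested with limma over all 16457 genes that passed the filter. Calls needed an adjusted p (Benjamini-Hochberg) under 0.05. Fold changes are on the log2 scale, the knockout line minus WT or C4 minus B3, and ± marks their standard error.

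In B3, 42 of the 73 genes were called against WT (57.5%), 10 higher and 32 lower. Over all genes tested, 47.9% were called in B3, 23.2% higher and 24.6% lower. In C4, 38 were called against WT (52.1%), 16 higher and 22 lower, where 56.2% of all genes were called, 28.2% higher and 28% lower. C4 against B3 gave 40 calls (54.8%), 23 higher and 17 lower, against 56.4% of all genes, 28.6% higher and 27.8% lower. The share called was therefore near that of all genes in C4 and between the lines. In B3 the share of lower calls was 43.8% of the channel genes. The libraries of the groups did not overlap at 39 of the 73 genes in B3, 37 in C4 and 49 in C4 against B3, compared with 53.8%, 60.7% and 62.3% of all genes. The median change of the 73 genes was -0.04 in B3, -0.02 in C4 and 0.02 in C4 against B3. The split by direction depends on the scaling: with libraries set to equal summed antilog values, B3 had 14 higher and 25 lower, C4 had 23 higher and 17 lower, so that the larger side turned round in C4, and C4 against B3 had 23 higher and 19 lower. That scaling moved the median of all genes by 0.033 in B3 and 0.029 in C4. The comparisons of B3 and of C4 with WT share their WT libraries, so their values are given side by side and not counted as independent.

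Large changes were few. In B3, 0 channel genes changed by 0.5 or more, where 1.72% of all genes did. In C4 against WT, 4 did, namely KCNJ10, KCNG1, KCNQ5 and KCNMA1, against 3.38% of all genes. In C4 against B3, 5 did, against 3.55% of all genes: KCNJ10, KCNK5 and CACNA2D4 higher and KCNG1 and KCNMA1 lower. KCNJ8, which reads 0.50 when rounded, lay just under this step.

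**Figure D1:**
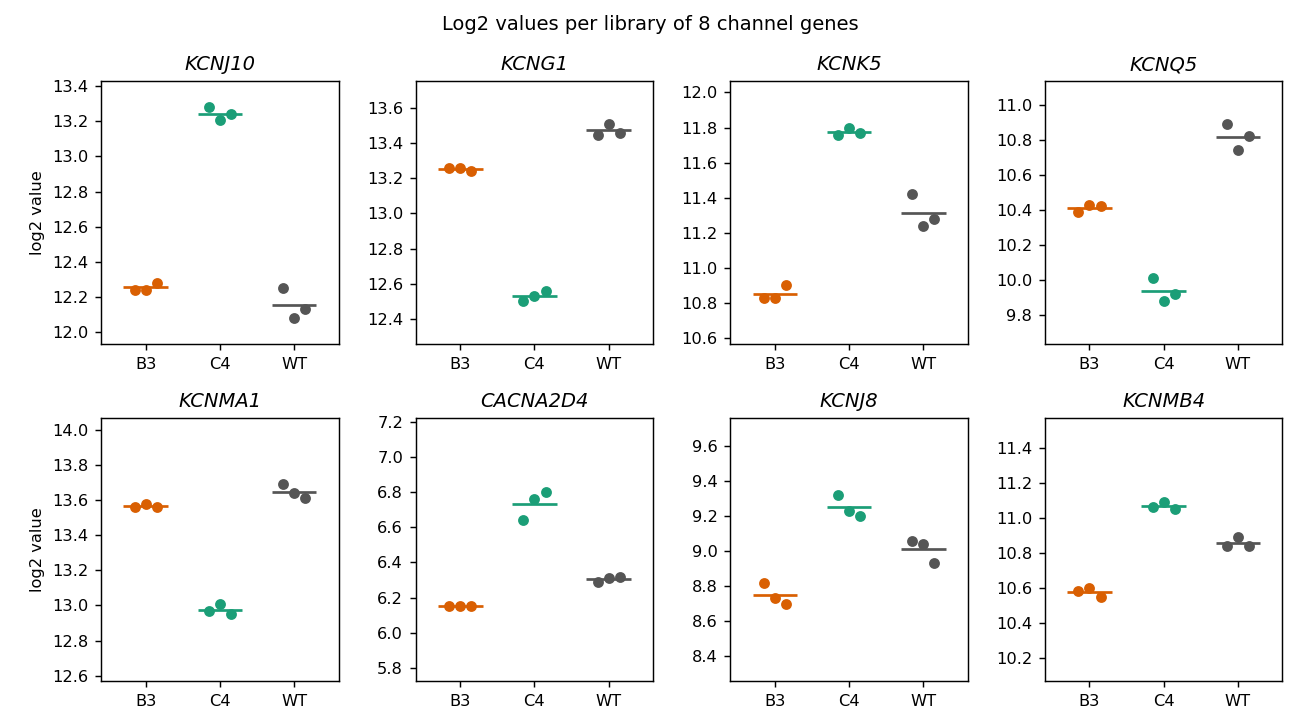
Log2 values per library of the 8 channel genes whose group means differ most; each point is 1 library, the line is the group mean, and every panel spans 1.5 log2 units. KCNJ10 stands near 13.2 in C4 and near 12.2 in B3 and WT, and KCNG1 is lowest in C4.

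Sequence is shown for the 250 bases before the RefSeq start of the 4 genes among the 5 most changed ones that the RefSeq promoter table (GRCh38.p14) holds. They are printed because ARNT2 and its family partners are known to bind short motifs with the core ACGTG or GCGTG. Matches to either, on both strands (also CACGT and CACGC), are in capitals, 5′ to 3′ along the gene. KCNJ10 lies at chr1:160070161-160070410 (minus strand), KCNK5 at chr6:39229476-39229725 (minus), KCNQ5 at chr6:72621814-72622063 (plus) and KCNMA1 at chr10:77637809-77638058 (minus). GENCODE 29 places the gene starts elsewhere, and by it the stretches of KCNJ10, KCNQ5 and KCNMA1 lie within the gene.
KCNJ10: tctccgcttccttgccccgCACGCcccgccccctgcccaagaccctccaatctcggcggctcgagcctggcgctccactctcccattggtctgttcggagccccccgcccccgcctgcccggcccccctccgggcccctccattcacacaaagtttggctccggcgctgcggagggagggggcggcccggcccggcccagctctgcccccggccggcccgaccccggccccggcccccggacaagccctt
KCNK5: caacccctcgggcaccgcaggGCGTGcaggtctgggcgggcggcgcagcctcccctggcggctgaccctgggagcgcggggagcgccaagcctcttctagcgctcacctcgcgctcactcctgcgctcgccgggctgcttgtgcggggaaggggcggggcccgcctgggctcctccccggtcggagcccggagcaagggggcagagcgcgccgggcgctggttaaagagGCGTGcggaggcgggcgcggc
KCNQ5: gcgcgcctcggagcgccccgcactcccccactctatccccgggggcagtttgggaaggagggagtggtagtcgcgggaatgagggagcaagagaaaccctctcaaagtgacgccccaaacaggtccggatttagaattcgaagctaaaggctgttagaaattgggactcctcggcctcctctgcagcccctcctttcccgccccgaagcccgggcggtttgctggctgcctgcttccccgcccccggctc
KCNMA1: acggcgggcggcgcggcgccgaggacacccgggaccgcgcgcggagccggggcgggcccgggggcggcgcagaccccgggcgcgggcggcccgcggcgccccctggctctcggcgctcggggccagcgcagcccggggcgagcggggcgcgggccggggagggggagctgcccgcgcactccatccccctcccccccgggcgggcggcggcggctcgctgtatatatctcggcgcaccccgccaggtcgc
The KCNJ10 stretch held 1 match, the KCNK5 stretch 2, and those of KCNQ5 and KCNMA1 held 0. Among the 57 tested channel genes with an entry, 21 (36.8%) had ACGTG or GCGTG, compared with 6483 of 11671 promoters of all tested genes (55.5%) and 11763 of all 27305 promoters (43.1%). CACGTG, which contains ACGTG and reads the same on both strands, was in 5.26% of these 57, against 8.56% of tested genes. A match is a description of the letters, not a binding site.

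Levels between genes are compared per kilobase of exon, on the antilog scale, with the exon lengths of GENCODE 29. A length counts every base in an exon of any transcript, such as 35.64 kb for KCNMA1 and 3.41 kb for KCNN4. The ranks thus depend on the annotation: before division by length, the mean antilog was 11010 for KCNMA1 and 9013 for KCNG1. KCNN4, the calcium-activated channel of intermediate conductance, was the highest channel gene in all 3 groups, at 8946 ± 142.5 in B3, 8398 ± 45.4 in C4 and 8256 ± 289.7 in WT (antilog per kb, SD, n = 3 each). KCNG1, a modifier subunit that is silent alone and joins other voltage-gated subunits, had 1792 ± 16.3 in B3, 1086 ± 22.3 in C4 and 2095 ± 49.5 in WT. KCNS3, another silent modifier, had 1302 ± 20.4, 1209 ± 32.2 and 1085 ± 9.05 in B3, C4 and WT. The calcium channel pores were low: CACNA1D, the highest of them, had 6.5, 6.54 and 6.09 in B3, C4 and WT, whereas their auxiliary subunit CACNB3 had 482.7, 573.6 and 561.6.

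**Figure D2:**
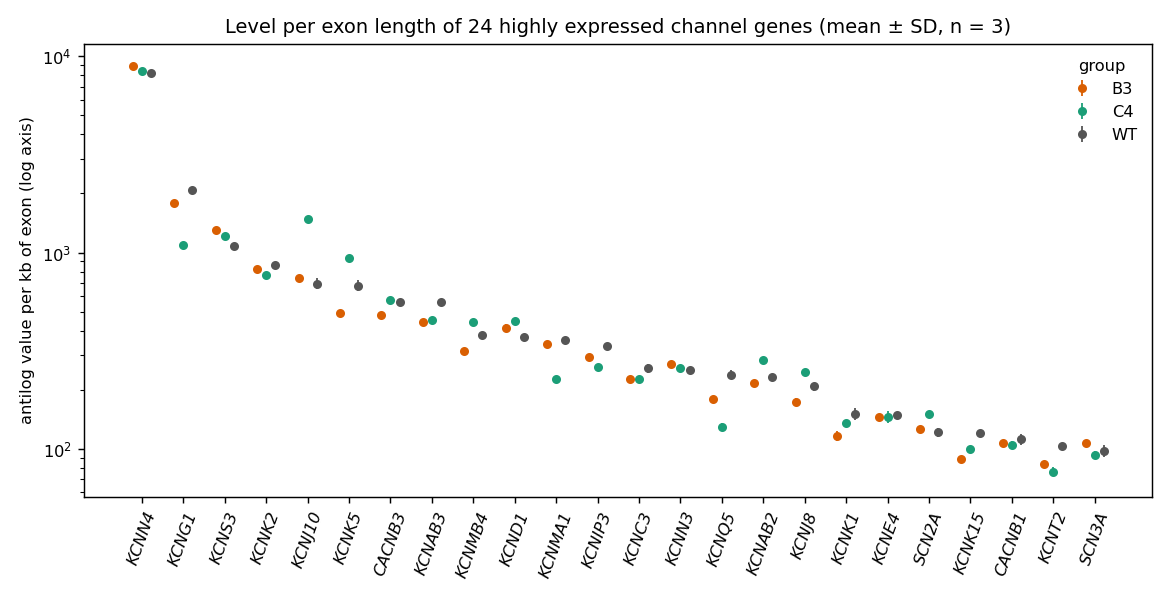
Level per kilobase of exon of 24 highly expressed channel genes, as mean ± SD over 3 libraries for B3, C4 and WT on a log axis. KCNN4 is the highest in each group, and KCNJ10 and KCNG1 differ most between C4 and the others.

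Counts by class, here and below, stand beside the shares of all tested genes that were called. These were 23.2% higher and 24.6% lower in B3, and 28.2% and 28% in C4. In C4 against B3 they were 28.6% higher and 27.8% lower. Voltage-gated potassium channel pore genes numbered 29, of which 19 were tested. In B3, 3 were higher and 7 lower, in C4 4 were higher and 7 lower, and C4 against B3 gave 5 in each direction; with equal summed antilog values C4 had 8 higher and 6 lower. KCNG1, at chr20:51003656-51023129, had log2 values of 13.26, 13.26 and 13.24 in B3 and 12.50, 12.53 and 12.56 in C4, against 13.45, 13.51 and 13.46 in WT. Both lines lay below WT, C4 far below B3, with no overlap. The change was -0.23 ± 0.025 in B3 (adjusted p = 7.26e-08) and -0.95 ± 0.025 in C4 (adjusted p = 2.3e-19), a 1.93-fold lower level, and -0.72 in C4 against B3 (adjusted p = 3.73e-17).

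KCNQ5, a subunit of the slow M-current, had 10.39, 10.43 and 10.42 in B3 and 10.01, 9.88 and 9.92 in C4, against 10.89, 10.74 and 10.82 in WT. The 3 groups were stepped, C4 lowest and WT highest, with no overlap. It fell by 0.40 in B3 (adjusted p = 5.96e-08), by 0.88 in C4 (adjusted p = 3.92e-14) and by 0.47 in C4 against B3 (adjusted p = 2.02e-09). KCNH2, the hERG channel, fell in both lines, -0.29 ± 0.043 in B3 (adjusted p = 5.81e-06) and -0.31 ± 0.043 in C4 (adjusted p = 1.4e-06), and C4 minus B3 was -0.02 (adjusted p = 0.701). KCNH3, a related channel of the forebrain, fell by 0.46 in B3 (adjusted p = 1.22e-08) and had a change of -0.05 in C4 (adjusted p = 0.327), a difference of 0.40 between the lines (adjusted p = 4.67e-08).

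KCNA2, a channel of axons, had 10.24, 10.26 and 10.25 in B3 and 10.59, 10.76 and 10.71 in C4, against 10.65, 10.49 and 10.60 in WT. B3 stood below both others, and C4 overlapped WT. The change was -0.33 in B3 (adjusted p = 2.4e-06) and 0.10 in C4 (adjusted p = 0.0624, between 0.0083 and 0.334 over the alternatives, under 0.05 without WT replicate 1 at 0.0171 and without C4 replicate 1 at 0.0083). KCNS3 and KCND1, a transient A-type channel, rose in both lines. KCNS3 rose by 0.26 in B3 (adjusted p = 6.09e-08) and 0.16 in C4 (adjusted p = 5.5e-05), and KCND1 by 0.15 (adjusted p = 0.000721) and 0.27 (adjusted p = 3.32e-07). KCNC4, a fast-repolarising channel, was not called in B3 (0.06) and fell by 0.17 in C4 (adjusted p = 0.00278). KCNH1, a channel known from tumour cells, was called in neither line against WT, with changes of 0.10 in B3 (adjusted p = 0.0965, 0.0283 to 0.208 over the alternatives, 0.0283 with equal summed antilog values) and 0.07 in C4 (adjusted p = 0.244).

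Auxiliary subunits and regulators of potassium channels numbered 15, and 14 were tested: 0 higher and 6 lower in B3, 3 and 4 in C4, and 3 and 3 in C4 against B3. Without adjustment, p under 0.05 gave the same 0 higher in B3. With equal summed antilog values B3 had 1 higher and 4 lower. As deposited, 23.2% of all tested genes were higher in B3 and 24.6% lower. KCNAB3, a cytoplasmic subunit that changes inactivation, fell in both lines, -0.33 ± 0.036 in B3 (adjusted p = 6.33e-08) and -0.30 ± 0.036 in C4 (adjusted p = 1.35e-07). KCNIP3, a calcium-binding subunit of A-type channels, fell by 0.19 in B3 (adjusted p = 8.53e-05) and 0.35 in C4 (adjusted p = 9.25e-09).

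KCNMB4, the subunit that makes the large-conductance channel slower, had 10.58, 10.60 and 10.55 in B3 and 11.06, 11.09 and 11.05 in C4, against 10.84, 10.89 and 10.84 in WT. B3 lay below WT and C4 above it, with no overlap. It fell by 0.28 in B3 (adjusted p = 3.76e-07) and rose by 0.21 in C4 (adjusted p = 1.2e-05), a difference of 0.49 ± 0.034 (adjusted p = 1.59e-11). KCNAB2, a second cytoplasmic subunit, rose by 0.29 in C4 (adjusted p = 1.64e-07). Its fall of 0.09 in B3 had an adjusted p of 0.0282 (limma), and 0.0219 to 0.152 over the alternatives. The call ended without WT replicate 1 (0.0622), WT replicate 3 (0.0775) or B3 replicate 3 (0.149). It also ended with equal summed antilog values (0.152) and with libraries set to equal medians (0.0559).

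All 6 calcium- and sodium-activated potassium channel genes were tested. In B3, 2 were higher and 4 lower, in C4 0 higher and 4 lower, and C4 against B3 gave 0 higher and 3 lower. At an unadjusted p under 0.05 limma also gave 0 higher in C4 against WT and against B3. Of all tested genes, 28.2% were called higher and 28% lower in C4 against WT, and 28.6% and 27.8% against B3. KCNMA1, the pore of the large-conductance channel, at chr10:76869601-77638369, had 13.56, 13.58 and 13.56 in B3 and 12.97, 13.01 and 12.95 in C4, against 13.69, 13.64 and 13.61 in WT. C4 was lowest, and no groups overlapped. The change was -0.67 ± 0.025 in C4 (adjusted p = 2.31e-16), 1.59-fold lower, and -0.59 in C4 against B3 (adjusted p = 2.79e-15). The change of -0.08 in B3 (adjusted p = 0.0109, 0.00575 to 0.128 over the alternatives) was lost without WT replicate 1 (0.0606) and with equal summed antilog values (0.128). In C4, therefore, the pore gene KCNMA1 fell and KCNMB4, an auxiliary subunit of the same channel, rose. KCNMB3, another auxiliary subunit, was not called in C4 (0.03, limma, adjusted p = 0.562).

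KCNT2, a sodium-activated channel, fell by 0.30 in B3 (adjusted p = 1.47e-05) and 0.43 in C4 (adjusted p = 4.68e-08). KCNN2, a small-conductance channel at log2 values of 4.20 to 4.38, fell by 0.16 in B3 (adjusted p = 2e-06) and 0.15 in C4 (adjusted p = 6.11e-06). KCNN4 had 14.87, 14.89 and 14.92 in B3 and 14.81, 14.81 and 14.80 in C4, against 14.84, 14.74 and 14.76 in WT. B3 lay above WT without overlap, and C4 overlapped WT. It rose by 0.12 in B3 (adjusted p = 0.00044), and its change in C4 was 0.03 (adjusted p = 0.407, 0.038 to 0.835 over the alternatives, 0.038 without WT replicate 1). KCNN3, a small-conductance channel, rose by 0.11 in B3 (adjusted p = 0.00606) and had 0.04 in C4 (adjusted p = 0.335).

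Inward rectifiers numbered 13, and 8 were tested: 3 higher and 3 lower in B3, 3 higher and 1 lower in C4, and 5 higher and 2 lower in C4 against B3. KCNJ10, the glial inward rectifier that takes up potassium around astrocytes, at chr1:159998651-160070483, had 12.24, 12.24 and 12.28 in B3 and 13.28, 13.21 and 13.24 in C4, against 12.25, 12.08 and 12.13 in WT. The C4 libraries stood about 1 log2 unit above all others, and B3 overlapped WT. It rose by 1.09 ± 0.033 in C4 (adjusted p = 4.93e-18), 2.13-fold, and was 0.99 higher in C4 than in B3 (adjusted p = 3.17e-17). The change in B3 was 0.10 (adjusted p = 0.0171, 8.94e-05 to 0.144 over the alternatives), lost without WT replicate 2 (0.144), WT replicate 3 (0.0707) or B3 replicate 3 (0.0647).

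Astrocyte markers changed in both lines against WT. The summed antilog of 6 markers ran from 89190 to 89630 in B3 and from 93800 to 98420 in C4, against 76540 to 82230 in WT. Most of this sum is S100B, with a mean antilog of 82900 over the 9 libraries, where SLC1A3 had 5095 and GFAP 111.2. Of the 5 tested, 2 were higher and 1 lower in B3 and 3 were higher and 0 lower in C4. S100B rose by 0.20 in B3 and 0.27 in C4, and GFAP by 0.25 and 0.23. SLC1A3 fell by 0.30 in B3 and rose by 0.31 in C4, and SLC1A2 and AQP4 were called in neither. In C4 against B3, 1 of the 5 was called, SLC1A3, higher by 0.60. ALDH1L1 had a mean of 1.29 in C4 and AQP4 3.97, both low. The part of the astrocyte markers in the KCNJ10 change was not tested. Neuron marker sums ran from 46620 to 47860 in B3 and from 47280 to 48350 in C4, against 42930 to 44580 in WT, with RBFOX3, STMN2, NEFL and NEFM at 3.30 or under in every group mean. The single neuron markers went both ways: of the 6 tested, 2 were higher and 3 lower in B3, and 3 were higher and 2 lower in C4. In C4, MAP2 rose by 0.31 and TUBB3 by 0.16, while SYT1 fell by 0.50 and SNAP25 by 0.23.

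KCNJ8, a pore of the ATP-sensitive channel of vessels, had 8.82, 8.73 and 8.70 in B3 and 9.32, 9.23 and 9.20 in C4, against 9.06, 9.04 and 8.93 in WT. The groups did not overlap, with B3 lowest and C4 highest. It fell by 0.26 in B3 (adjusted p = 0.000192) and rose by 0.24 in C4 (adjusted p = 0.000285). ABCC9, a regulatory subunit that it is known to pair with, had log2 values of 1.00 to 1.03 and was not tested. KCNJ14, a strong inward rectifier, fell by 0.23 in B3 (adjusted p = 0.00283) and had -0.01 in C4. KCNJ2, a widely expressed strong rectifier, was lower in C4 than in B3 (-0.20, adjusted p = 0.000109).

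Two-pore-domain genes encode background potassium channels that set the resting potential. Of 12, 8 were tested. In B3, 0 were higher and 6 lower, also at an unadjusted p under 0.05, with a median of -0.22 among the 8. In C4, 2 were higher and 4 lower (median -0.10), and C4 against B3 gave 5 higher and 1 lower (median 0.16). With equal summed antilog values the counts were 0 and 4 in B3 and 2 and 2 in C4. As deposited, 47.9% of all tested genes were called in B3, 23.2% higher and 24.6% lower. The share called was 56.2% in C4 and 56.4% in C4 against B3. KCNK5, an alkaline-activated channel, at chr6:39188973-39229450, had 10.83, 10.83 and 10.90 in B3 and 11.76, 11.80 and 11.77 in C4, against 11.42, 11.24 and 11.28 in WT. B3 and C4 stood on opposite sides of WT without overlap. It fell by 0.46 in B3 (adjusted p = 1.03e-09) and rose by 0.47 in C4 (adjusted p = 3.93e-10), a difference of 0.93 ± 0.039 (adjusted p = 1.65e-15).

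Beside KCNK5, the largest falls of this class in B3 were those of KCNK15, KCNK9 and KCNK1. KCNK15, whose product carries little current alone, fell by 0.43 in B3 (adjusted p = 4.89e-08) and 0.26 in C4 (adjusted p = 2.98e-05). KCNK1, a weak background channel, fell by 0.37 in B3 (adjusted p = 5.06e-06) and KCNK9, an acid-inhibited channel, by 0.39 (adjusted p = 9.34e-06). In C4 both had -0.16. For KCNK1 the call (adjusted p = 0.0172, 0.00536 to 0.121 over the alternatives) ended without WT replicate 1 (0.121) or C4 replicate 2 (0.08). For KCNK9 it (adjusted p = 0.0236, 0.00115 to 0.165) ended without WT replicate 2 (0.0735), WT replicate 3 (0.165), C4 replicate 1 (0.0827) or C4 replicate 2 (0.0987). KCNK2, a mechanosensitive channel and the fourth highest per kilobase in WT, fell by 0.18 in C4 (adjusted p = 1.89e-05).

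Calcium channel pore genes numbered 9, and 4 were tested. CACNA1A, a pore of presynaptic terminals, and CACNA1G, a low-threshold pore, were called in neither line. CACNA1D, a low-voltage L-type pore, had 0.09 in B3 (adjusted p = 0.0958, 0.0257 to 0.323 over the alternatives) and 0.10 in C4 (adjusted p = 0.0588, 0.0184 to 0.246). It was called in B3 with equal summed antilog values (0.0257), and in C4 under 7 alternatives, among them that scaling (0.0184), the replicate block (0.0448), and leaving out WT replicate 1 (0.0406) or C4 replicate 2 (0.021). CACNA1F, an L-type pore known from retina, had -0.06 in B3 (adjusted p = 0.0211, 0.00745 to 0.333 over the alternatives), a call that ended without WT replicate 2 (0.12), B3 replicate 1 (0.0708) or B3 replicate 2 (0.0733). In C4, limma called 0 genes of this class, and 1 had an unadjusted p under 0.05. With equal summed antilog values B3 had 1 higher and 0 lower. Auxiliary subunits numbered 8, and 7 were tested: 1 higher and 3 lower in B3, 2 higher and 1 lower in C4, and 2 higher and 2 lower in C4 against B3. CACNB3, a beta subunit, fell by 0.22 in B3 (adjusted p = 1.82e-06) and had 0.03 in C4 (adjusted p = 0.411). CACNA2D4, an alpha-delta subunit known from retina, had 6.15, 6.15 and 6.15 in B3 and 6.64, 6.76 and 6.80 in C4, against 6.29, 6.31 and 6.32 in WT. B3 was lowest and C4 highest, with no overlap. It fell by 0.16 in B3 (adjusted p = 0.00268) and rose by 0.43 in C4 (adjusted p = 3.44e-09). CACNB4, another beta subunit, fell by 0.30 in C4 (adjusted p = 7.28e-06).

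Sodium channel genes numbered 12, and 7 were tested: 1 higher and 2 lower in B3, 2 higher and 1 lower in C4, and 3 higher and 1 lower in C4 against B3. With equal summed antilog values B3 had 2 higher and 1 lower. SCN2A, a pore gene of neurons, had 11.51, 11.55 and 11.59 in B3 and 11.79, 11.77 and 11.83 in C4, against 11.57, 11.44 and 11.44 in WT. C4 stood above both others, and B3 overlapped WT. It rose by 0.31 ± 0.036 in C4 (adjusted p = 9.61e-08), and its change in B3 was 0.07 (adjusted p = 0.134, 0.00775 to 0.405 over the alternatives, 0.00775 without WT replicate 1). SCN3A, a pore gene of the developing brain, was lower in C4 than in B3 (-0.20, adjusted p = 0.000883). SCN9A, a pore gene of sensory neurons, fell by 0.16 in B3 (adjusted p = 0.00313) and had -0.07 in C4 (adjusted p = 0.155, 0.0317 to 0.47 over the alternatives, 0.0317 without C4 replicate 2).

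**Figure D3:**
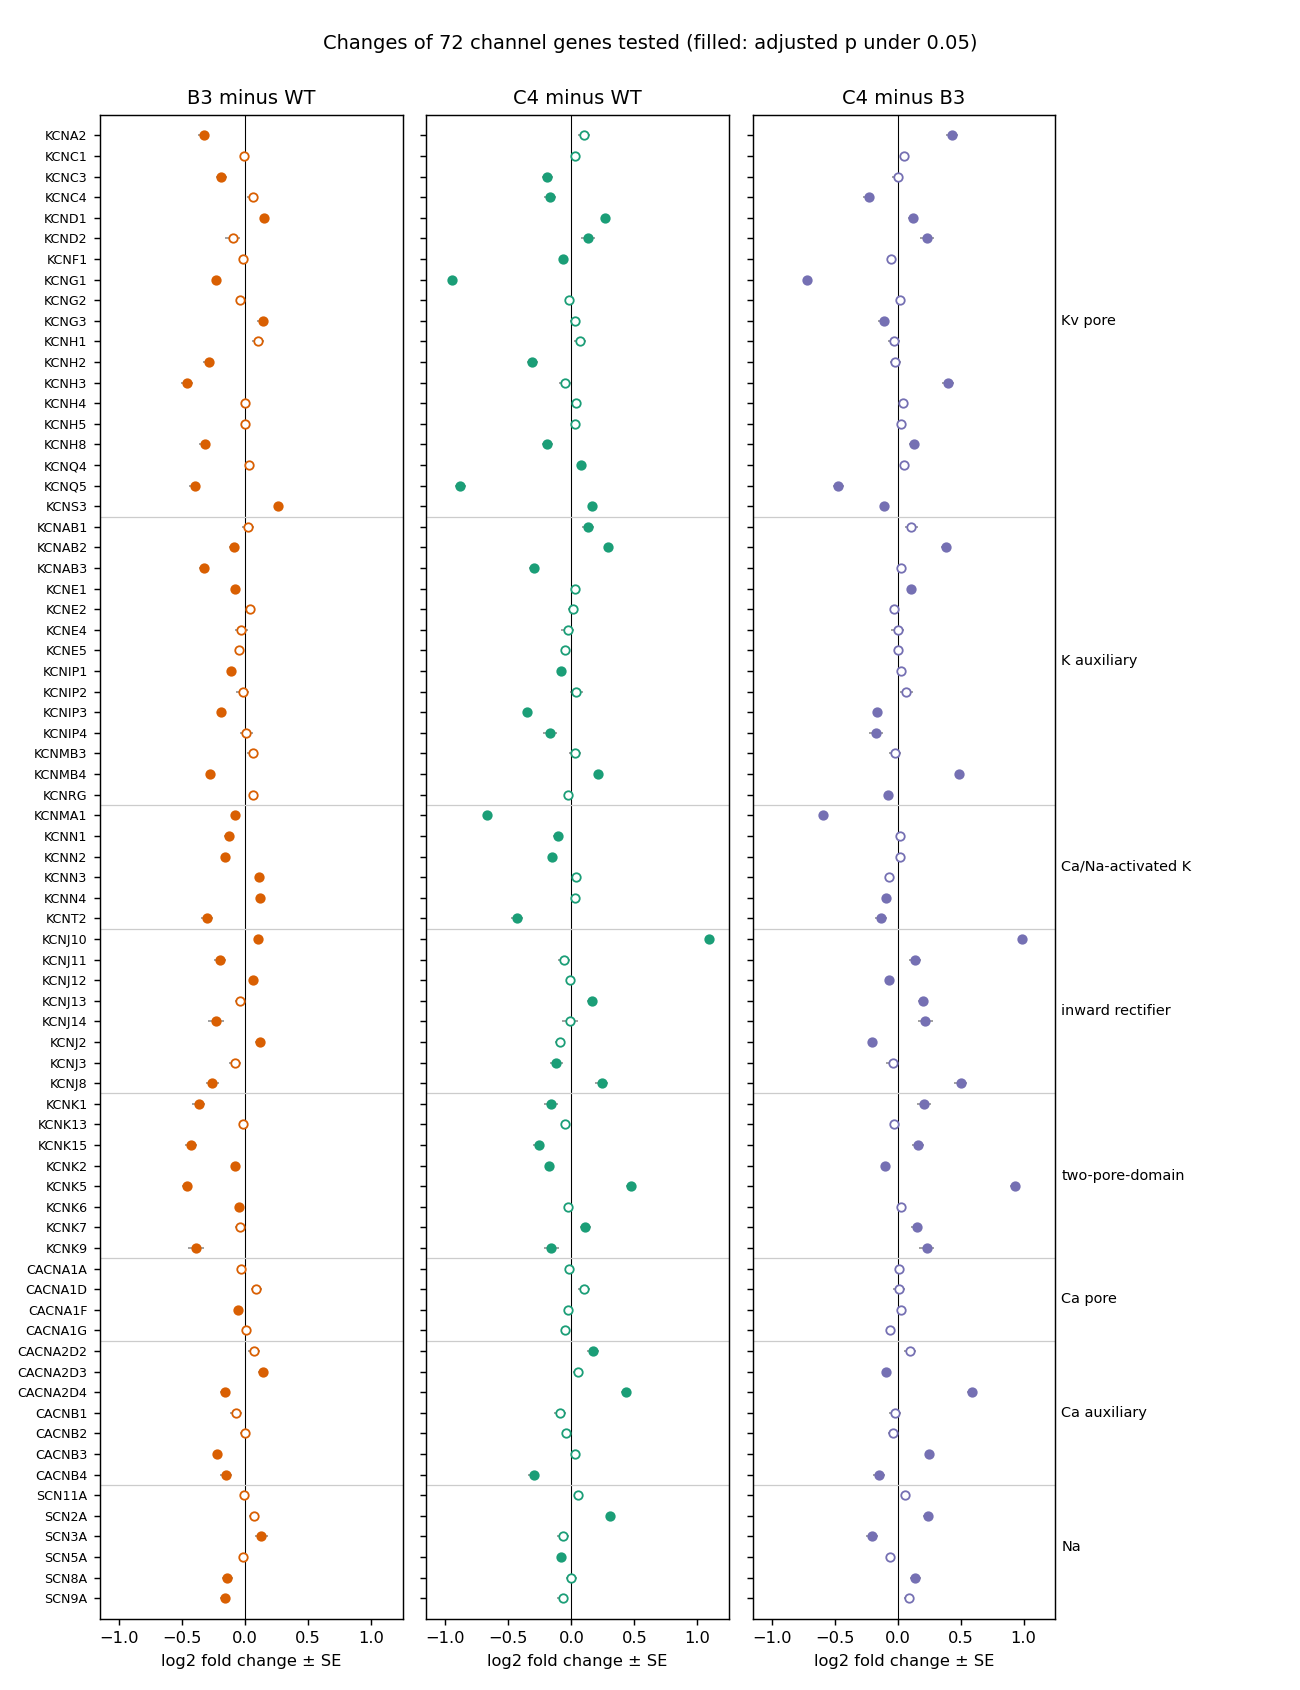
Log2 fold change ± SE of 72 of the 73 tested channel genes in B3 minus WT, C4 minus WT and C4 minus B3, ordered by class, with filled points called at an adjusted p under 0.05. KCNJ10 (1.09) and KCNG1 (-0.95) reach farthest in C4, and no point in B3 passes 0.5.

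Calls were fewer at low levels. Among the 26 tested channel genes with a mean log2 value under 6, 9 were called in B3 (34.6%, against 15% of all genes at that level) and 8 in C4 (30.8%, against 20.6%), and none changed by more than 0.16 in either. Among the 26 with a mean of 9 and over, 21 were called in B3 (80.8%, against 56.9% of all genes at that level) and 18 in C4 (69.2%, against 66.3%).

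**Figure D4:**
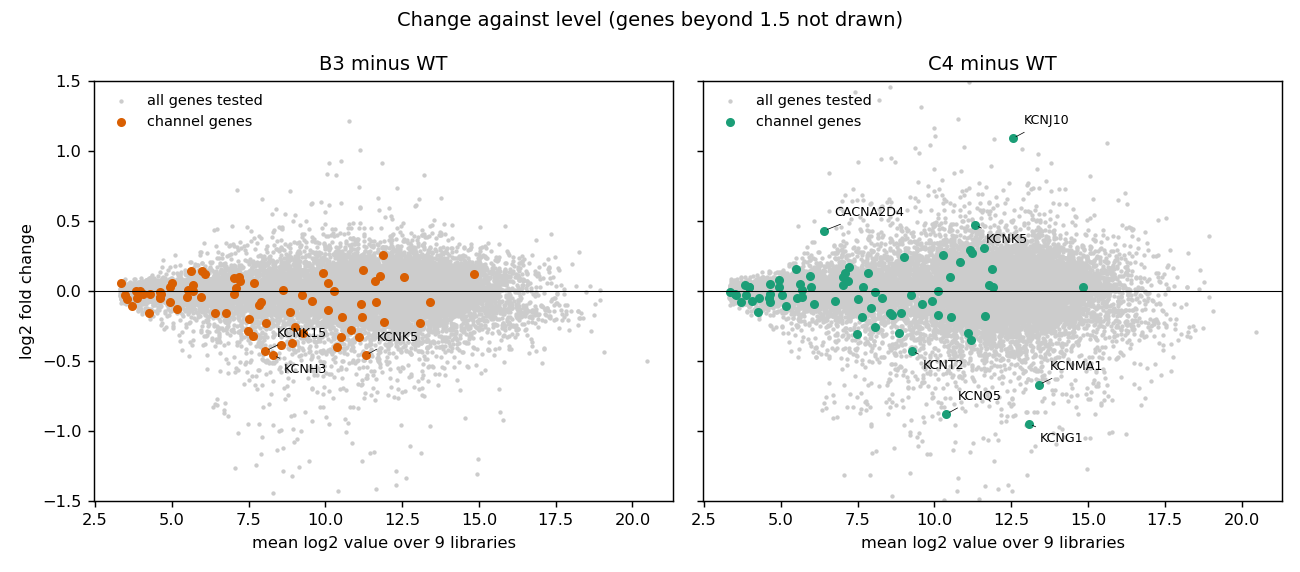
Log2 fold change against mean log2 value for the channel genes (colour) and all genes tested (grey), B3 minus WT left and C4 minus WT right. Changes at log2 values under 6 stay within 0.16 for the channel genes.

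Genes that lie near each other can move together, so each channel gene was set beside the other tested genes within 5 Mb on either side. Around KCNJ10, 126 neighbours had a median of 0.04 in C4, around KCNG1 46 had 0.01, around KCNK5 105 had 0.02 and around KCNMA1 55 had 0.04. A change as large as the gene's own was found in C4 at 1 of the 126 neighbours of KCNJ10, 0 of 46 of KCNG1, 2 of 105 of KCNK5 and 2 of 55 of KCNMA1. Around KCNQ5, 22 neighbours had a median of -0.34 in B3, near the gene's own -0.40, and -0.01 in C4, where the gene had -0.88. Around KCNJ8, 26 neighbours had -0.25 in B3 beside -0.26 for the gene, and 0.24 in C4 against B3 beside 0.50. Around CACNA2D4, 60 neighbours had -0.20 in B3 beside -0.16, and 0.28 in C4 against B3 beside 0.59. Around KCNMB4, 34 neighbours had -0.09 in B3 beside -0.28, and 0.13 in C4 against B3 beside 0.49. In C4 against WT, the neighbours of KCNJ8, CACNA2D4 and KCNMB4 had medians of -0.04, 0.04 and 0.07, beside 0.24, 0.43 and 0.21. Around KCNN2, 34 neighbours had -0.16 in B3, the same as the gene. Around CACNB3, 121 neighbours had -0.13 in B3 beside -0.22, and 0.19 in C4 against B3 beside 0.25. Around KCNH3, 141 neighbours had -0.13 in B3 beside -0.46, and 0.19 in C4 against B3 beside 0.40. In B3, 7 of the 73 channel genes had a neighbour median of -0.1 or lower, and in C4 5 had, including KCNIP3 at -0.18 and KCNK9 at -0.26. The part of these neighbourhoods in the changes was not tested.

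**Figure D5:**
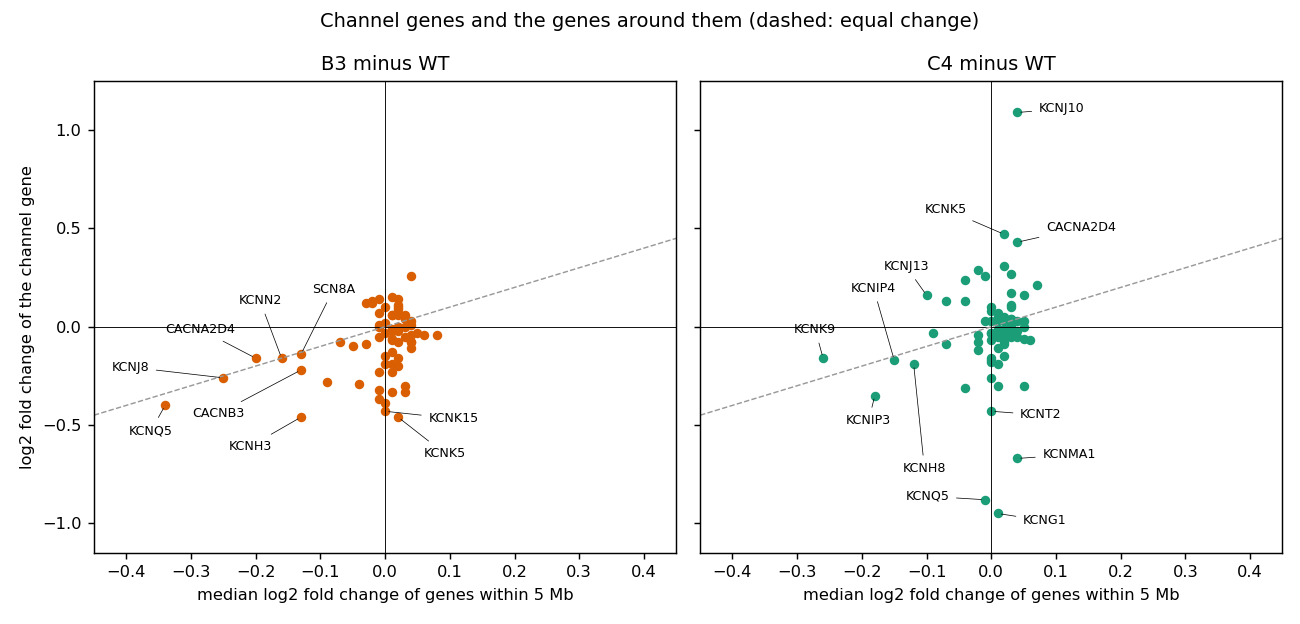
Log2 fold change of each channel gene against the median change of the tested genes within 5 Mb, B3 minus WT left and C4 minus WT right, with a dashed line where both are equal. KCNQ5, KCNJ8 and CACNA2D4 lie near the dashed line in B3, while KCNJ10 and KCNG1 in C4 lie far from it.

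Exons of 45 of the 104 channel genes overlap those of another gene in GENCODE 29, among them KCNG1, KCNMA1, KCNQ5, KCNH3, KCNAB2, KCNAB3, KCNJ8, KCNK15, SCN2A and SCN3A. The strand of the counting is not stated, so reads of such pairs cannot be told apart. KCNJ10, KCNK5 and KCNMB4 have no such overlap.

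Other channel genes and partners of these channels were taken from a list of 76 genes in the table, of which 64 were tested. In B3, 10 were higher and 21 lower, in C4 15 higher and 20 lower, and C4 against B3 gave 21 higher and 15 lower. Called were thus 31, 35 and 36 of the 64, where 47.9%, 56.2% and 56.4% of all tested genes were called. CACNG7, a gamma-type subunit of calcium and glutamate channels, had 8.47, 8.60 and 8.59 in B3 and 8.25, 8.17 and 8.17 in C4, against 9.29, 9.32 and 9.36 in WT. Both lines lay below WT without overlap. It fell by 0.77 in B3 (adjusted p = 7.33e-12) and 1.12 in C4 (adjusted p = 2.8e-15). ITPR2, a receptor that releases calcium from internal stores, fell by 0.68 in B3 (adjusted p = 1.09e-14) and rose by 0.30 in C4 (adjusted p = 1.02e-08), and its 36 neighbours had a median of -0.27 in B3 and -0.03 in C4. TPCN1, a channel of endolysosomes, fell by 0.43 in B3 (adjusted p = 9.72e-10) and 0.34 in C4 (adjusted p = 1.94e-08). FGF12, a partner of sodium channel pores, rose by 0.32 in B3 (adjusted p = 2.43e-09) and 0.28 in C4 (adjusted p = 1.11e-08). In C4, ORAI3, a store-operated calcium channel, rose by 0.42 (adjusted p = 2.48e-09), TRPM4, a calcium-activated cation channel, rose by 0.36 (adjusted p = 3.27e-08), and TRPV4, an osmosensitive cation channel, fell by 0.47 (adjusted p = 1.44e-12); in B3 none of these 3 was called.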

How the data were processed

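Polyadenylated RNA of 9 libraries of LN229 cells was measured, 3 per group, grouped by the labels' titles. Deposited were log2 values of 19356 genes, which the authors had scaled between the libraries. The submitters' processing notes name STAR 2.7.3a, Subread 1.6.3, DESeq2 and hg38, with no role or order. The transform is not named there, read depth is unknown, and counts could not be recovered, so no count model was used.

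The values were used as deposited. The test took the 16457 genes whose mean antilog reached 10 and left out 2899. A single linear model over the 9 libraries was fitted in R 4.3.3 with limma 3.58.1 (helped by statmod 1.5.0 and the package data.table, at 1.17.8). It had 1 term for each group, and variances were moderated along the mean level. Tests were two-sided, p-values were adjusted by Benjamini-Hochberg over all genes tested, and calls needed an adjusted p under 0.05. Positions and exon lengths are from GENCODE 29 (GRCh38), which held all 104 channel genes, and promoters from RefSeq (GRCh38.p14), which matched 80.

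Named genes were, per comparison, the 8 called channel genes with the largest rise and the 8 with the largest fall, per class the 3 with the widest range of group means, a fixed set, and 3 partner genes per direction. Untested genes outside this rule, the tested gene KCNMB3, and ABCC9 as a partner were added for context after their values were seen. Results of some genes are not reported here, though the counts include them. The channel genes and lists were chosen with earlier results of these data known. Alternatives were other filters, pseudocounts and scalings, no trend, robust moderation, fits of the compared groups only, a replicate block and leaving out each library.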

Additional observations from a re-analysis of the deposited data

Results flagged for a closer look

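Of the channel genes the text names, 5 were called in each line against WT in opposite directions and also between the lines. C4 minus B3 was 0.93 ± 0.039 for KCNK5 (limma, adjusted p = 1.65e-15), 0.59 ± 0.040 for CACNA2D4 (adjusted p = 1.4e-11), 0.50 ± 0.050 for KCNJ8 (adjusted p = 1.17e-08), 0.49 ± 0.034 for KCNMB4 (adjusted p = 1.59e-11) and 0.38 ± 0.034 for KCNAB2 (adjusted p = 1.51e-09). In each of the 5, all 3 C4 libraries were higher than all 3 WT libraries and all 3 B3 libraries were lower. CACNA2D4, KCNJ8 and KCNMB4 lie on chromosome 12, where the tested genes within 5 Mb had medians of the same sign, -0.20, -0.25 and -0.09 in B3 minus WT and 0.28, 0.24 and 0.13 in C4 minus B3. In C4 minus WT the medians were 0.04, -0.04 and 0.07, beside rises of 0.43, 0.24 and 0.21 for the 3 genes. Around KCNK5 the C4 minus B3 median was 0.01. The part of these neighbourhoods was not tested. The fall of KCNAB2 in B3 is the weakest of these calls (adjusted p = 0.0282). It was lost with equal summed antilog values (0.152) and with libraries set to equal medians (0.0559). Groups of 3 libraries were not tested for single libraries that stand apart.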

How the results depend on the processing

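No called value of a named channel gene changed sign under the alternatives run, while some values near 0 that were not called did, such as CACNA1G in B3, at 0.01 and at -0.02 without B3 replicate 2. The counts over all channel genes stayed within 1.5 times their value in each direction. The larger side of the C4 calls still turned round with equal summed antilog values, to 23 higher and 17 lower. That scaling also moved counts of single classes by more: in C4, voltage-gated potassium pores had 8 higher and 6 lower in place of 4 and 7, and two-pore-domain genes 2 lower in place of 4; in B3, sodium channel genes had 2 higher and 1 lower in place of 1 and 2, and calcium channel pores 1 higher and 0 lower in place of 0 and 1. Leaving out each library gave 7 to 11 channel genes higher and 27 to 31 lower in B3, 13 to 16 and 19 to 22 in C4, and 20 to 25 and 14 to 18 in C4 against B3. Of the calls, 12 of 42 in B3, 11 of 38 in C4 and 9 of 40 between the lines were lost when some library was left out, with changes of at most 0.15, 0.17 and 0.22. With a replicate block, the counts were 10 and 31 in B3, 17 and 21 in C4, and 23 and 17 in C4 against B3. The numbers did not pair the libraries: libraries with the same number deviated together with r of -0.229 to 0.016 for B3 and WT, -0.105 to 0.002 for C4 and WT, and -0.112 to 0.008 for C4 and B3. Depth is unknown, so changes of weakly expressed genes may go undetected.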
